A study of Mus musculus with 12 samples.

Results

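Gastrocnemius muscle of mice that carried a tumour and received selpercatinib was compared with that of tumour-free mice that received vehicle, over every gene with a mean of at least 0.5 FPKM in these 8 libraries. FPKM, sequenced fragments per length of transcript, is a level scaled for gene length and for the library. The library scale of these values was not the total of reads, as described under processing. The rule kept 12816 of the 54532 genes in the table, 11012 of them protein-coding, and it used no difference between the groups. All animals were female ICR SCID mice, an immunodeficient strain without functional B and T lymphocytes. The tumour-free group (NTV, 4 mice) received vehicle. The treated group (TL, 4 mice) carried subcutaneous HT1080 tumours, a human fibrosarcoma line, and was given selpercatinib by mouth at 30 mg/kg each day over 19 days. Another group (TV, 4 mice) carried the same tumours and received vehicle. It entered the fit through the shared spread and is set beside TL for only some of the genes described. TL and NTV therefore differ in tumour and in drug at once, and no tumour-free group on the drug was analysed here, so the effects of tumour and of drug cannot be told apart in this contrast. Age and the hour of sampling are not given in the labels, and the tag that names HT1080 stands on the tumour-free muscle too.

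Loss of skeletal muscle in tumour-bearing hosts is known as cachexia. Selpercatinib inhibits the kinase RET, which signals for GDF15 through the co-receptor GFRAL in the hindbrain, a route known for suppressing appetite. In wasting muscle, FoxO transcription factors and glucocorticoids switch on ubiquitin ligases such as Trim63 (MuRF1) and Fbxo32 (atrogin-1). The connective tissue around the fibres is made mainly by fibroblasts and tendon cells, which secrete collagens and the proteins that order them.

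The 12 libraries held between 14939830 and 23580603 reads in genes, with 15872950 to 21316563 in TL and 16982345 to 18842784 in NTV. The muscle label held in all 12, with the muscle creatine kinase Ckm at 3745 FPKM or more. By root mean square difference of log2 values, NTV libraries stood 0.420 to 0.479 apart, TL libraries 0.406 to 0.571, and NTV from TL 0.529 to 0.690. The first principal component of the 8 libraries held 37.5% of the variance and set all TL libraries apart from all NTV libraries. The second, with 18.5%, set TL 1 and TL 5 (25.8 and 27.2) apart from TL 4 and TL 7 (-18.4 and -16.5). Ucp1, the uncoupling protein of brown fat, was above 2 FPKM in 3 of the 8 libraries: NTV 5 at 53.4, TL 1 at 58.3 and TL 5 at 3.97. Where leaving out these 3 libraries ended the call of a gene described below, its adjusted p without them is given.

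Of the 12816 genes, 1141 (8.9%) differed between TL and NTV at an adjusted p under 0.05 by limma, 536 (4.18%) higher and 605 (4.72%) lower in TL. Changes are differences of mean log2(FPKM + 0.5), with the standard error after ±; this scale understates the change of genes with low levels. Of the called genes, 95 were at least 2-fold higher and 132 at least 2-fold lower, and the median change over all tested genes was 0.02. By bare separation, all 4 TL values lay above all 4 NTV values in 10.7% of genes and below them in 10.2%. With libraries scaled to equal totals, 459 genes were called higher and 280 lower, so that the higher share of calls went from 47% to 62.1%. That scaling moved the median of all genes to 0.133. The counts also changed with single libraries left out, each a run with fewer samples. Without NTV 5 they were 228 higher and 312 lower, without TL 4 229 and 285, and without TL 7 240 and 302. Without NTV 6 they were 248 and 308, without NTV 2 279 and 344, and without NTV 3 345 and 388. Without TL 1 they were 395 and 474, whereas without TL 5 they were 536 and 642. Without the 3 libraries that held Ucp1 they were 277 and 442.

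**Figure D1:**
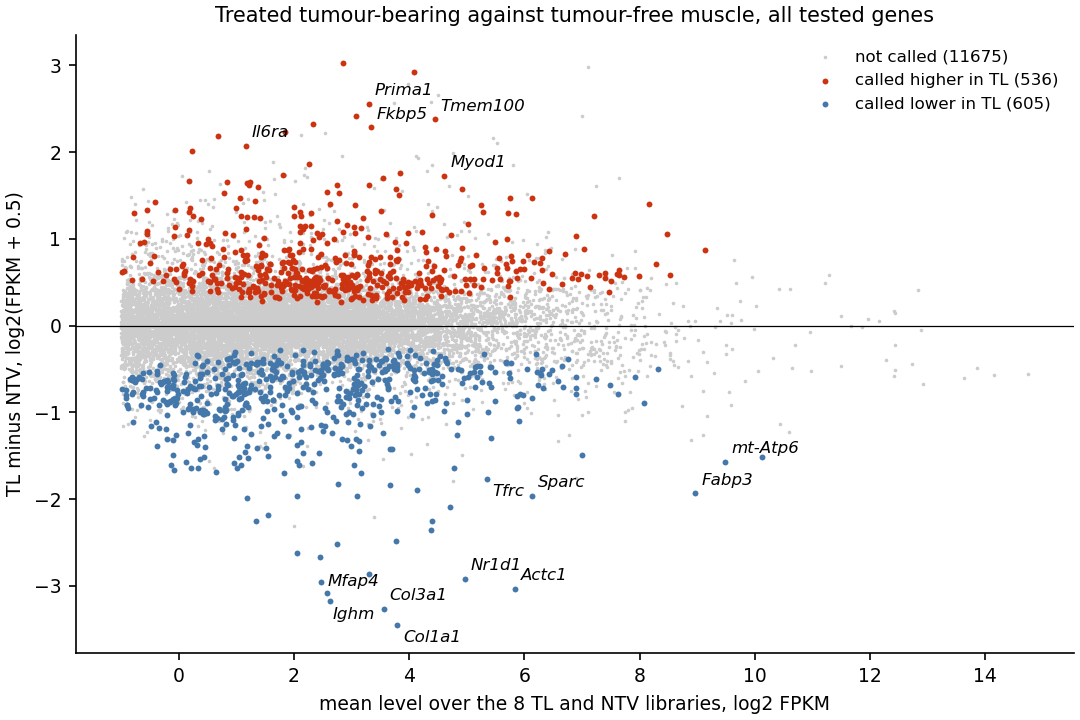
Each point is 1 of the 12816 tested genes, with its mean level over the TL and NTV libraries (log2 FPKM) on the horizontal axis and TL minus NTV in log2(FPKM + 0.5) on the vertical axis. The 536 genes called higher are red and the 605 called lower are blue, and Col1a1 lies lowest, at -3.45.

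The largest falls were in genes of the extracellular matrix. Of 17 tested collagen genes, 14 were called lower, against 4.72% of all genes, and none higher. The median change was -1.46 against 0.02 over all genes. The 4 TL values lay below the 4 NTV values in 16 (10.2% over all genes). Col1a1 (chromosome 11, 94936224 to 94953042, mm10), the main chain of type I collagen, measured 17.6, 16.1, 30.5 and 39.1 FPKM in NTV replicates 2, 3, 5 and 6. In TL replicates 1, 4, 5 and 7 it measured 2.56, 0.796, 2.67 and 1.59 FPKM. The groups did not overlap, and the change was -3.45 ± 0.40 (limma, adjusted p = 0.00192). In TV the gene ran from 0.691 to 3.16 FPKM, and TL minus TV was -0.12 (adjusted p = 0.919).

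Col3a1, the fibrillar collagen of soft connective tissue, fell from 12.7 to 29.9 FPKM in NTV to 0.702 to 2.51 in TL, a change of -3.26 ± 0.40 (limma, adjusted p = 0.00223). The second chain of type I collagen, Col1a2, changed by -2.86. The basement membrane chains Col4a1 and Col4a2 changed by -2.25 and -1.90, and the microfibrillar chains Col6a1, Col6a2 and Col6a3 by -1.97, -1.96 and -1.46. Col14a1, Col16a1 and Col22a1 were lower in their estimates (-0.67, -0.59 and -0.96) without a call, although Col22a1 passed without NTV 2 or TV 6 (adjusted p down to 0.0386). The other 7 listed collagens, among them Col12a1 and Col11a1, stayed under the level minimum and were not tested.

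Among 46 tested matrix genes other than collagens, 27 were called lower, against 4.72% of all genes, and none higher, with a median of -0.86. Mfap4, a glycoprotein of elastic microfibrils, measured 8.78, 6.14, 11.6 and 14.3 FPKM in NTV and 1.01, 0.269, 1.46 and 0.852 in TL (-2.95 ± 0.32, limma, adjusted p = 0.00192). Fbn1, which forms the microfibril itself, went from 3.57 to 6.45 FPKM in NTV to 0.501 to 0.977 in TL (-2.18 ± 0.24). Sparc, a collagen-binding protein also listed as a myokine, went from 80.3 to 142 to 17.9 to 33.4 (-1.96 ± 0.24). Neither of these genes overlapped between the groups. The remaining calls included fibronectin Fn1 (-1.56), the crosslinking oxidases Loxl1 and Loxl2 (-1.27 and -1.53), the collagenase Mmp2 (-1.31), the small proteoglycans Bgn and Lum (-1.39 and -1.14) and the basement membrane proteins Nid1 and Nid2 (-1.02 and -1.07). Of these, Loxl1, Bgn, Lum and Nid1 lost the call without single libraries among NTV 2, NTV 5, NTV 6, TL 4 and TL 7 (adjusted p up to 0.0666). Without the libraries that held Ucp1, Loxl1, Bgn and Lum also missed the threshold (adjusted p = 0.0648, 0.06 and 0.0553). TL 4 was the lowest TL library for Col1a1, Col3a1, Mfap4, Fbn1 and Sparc. With 1 library left out, 13 to 15 collagens were called lower, whereas the count for other matrix genes ran from 12 (without NTV 5) to 28. It was also 12 without the libraries that held Ucp1 and 16 at equal totals.

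**Figure D2:**
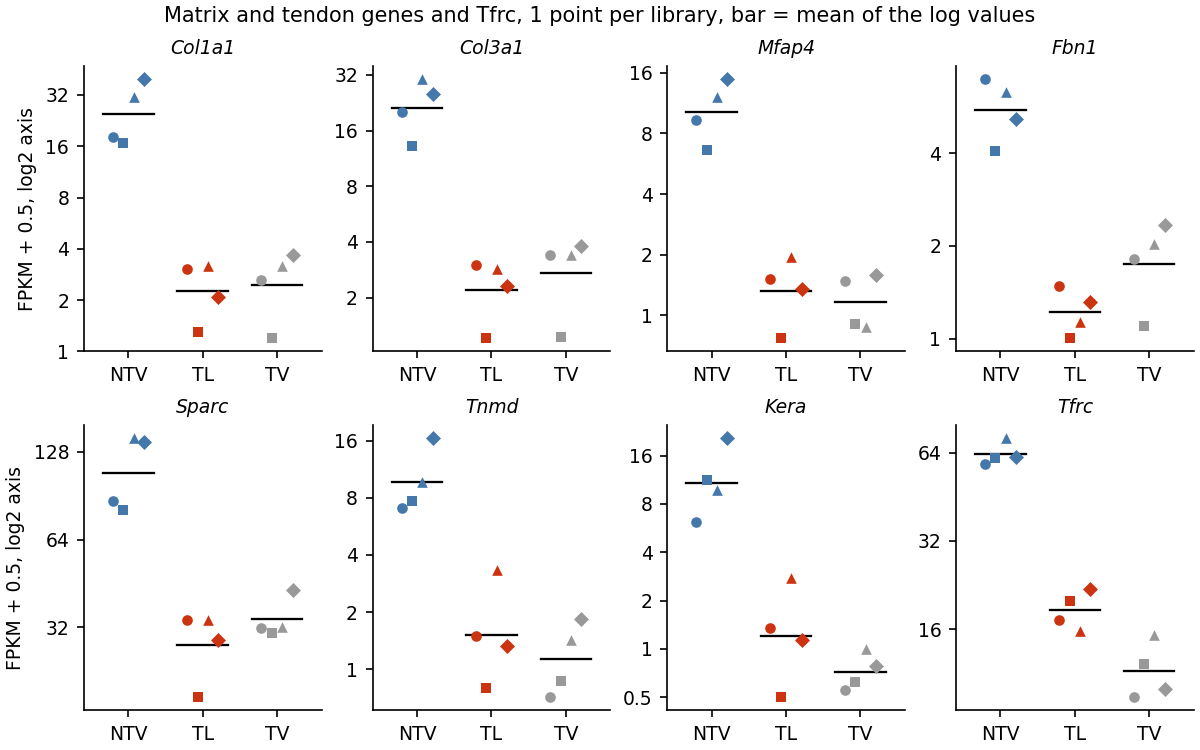
Levels of 7 matrix and tendon genes and of Tfrc in each library (FPKM + 0.5, log2 axis), with NTV in blue, TL in red, TV in grey and a bar at the mean of the log values; symbol shapes follow the order of the replicate numbers. In all 8 panels the TL points lie below the NTV points.

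Some markers of the cells that make this matrix fell too. Of 12 tested tenocyte markers, 6 were called lower and none higher (median -1.49), where 4.72% of all genes were called lower. The 6 were Tnmd, Kera, Fmod, Cilp2, Comp and Chad, of which all but Tnmd encode matrix proteins. The summed level of the list was 98.8 to 181 FPKM in NTV against 47.9 to 69.9 in TL. In bulk muscle, fewer cells of a type and less RNA per cell cannot be told apart, and how much tendon was dissected with each muscle was not recorded in the labels. Tnmd, a membrane protein of tendon cells, measured 6.56, 7.18, 9.19 and 16 FPKM in NTV and 1, 0.297, 2.82 and 0.828 in TL (-2.67 ± 0.43, limma, adjusted p = 0.00604). Kera, a proteoglycan of tendon and cornea, went from 5.67 to 20.1 FPKM in NTV to at most 2.26 in TL and was at 0 in TL 4 (-3.17 ± 0.47). Fmod, a proteoglycan that guides fibril growth, changed by -2.35 (limma, adjusted p = 0.0222), and its call ended without NTV 5 or NTV 6 (adjusted p up to 0.0633). Scx, the transcription factor of tendon cells, named here because its estimate had the opposite sign, measured 3.08 to 7.28 FPKM in NTV and 7.39, 13.8, 3.9 and 14.4 in TL (0.84 ± 0.38, limma, adjusted p = 0.18). It passed without TL 5 (adjusted p = 0.0443) and without TL 1 and TL 5 together (adjusted p = 0.0232). The tenocyte count was 3 without NTV 5 and 3 without NTV 6.

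Of 20 markers of fibro-adipogenic progenitors, the resident fibroblasts of muscle, 5 were called lower and none higher (median -0.39). Over all genes 4.72% were called lower. The 5 were Fbn1, Serpinf1, Mfap5, Lum and Cd34, of which Fbn1, Mfap5 and Lum encode matrix proteins. Serpinf1, the secreted factor PEDF, changed by -1.84 ± 0.30 (limma, adjusted p = 0.00605). Without NTV 5 the count was 3. Mfap5 changed by -1.23, a call that ended without NTV 2, NTV 5 or TL 4 (adjusted p up to 0.0649) or (adjusted p = 0.0812) without the libraries that held Ucp1. The Mfap5 call also ended at equal totals. Dcn, the most abundant proteoglycan of this list, measured 43.9 to 54.3 FPKM in NTV and 24.1 to 54.2 in TL and was not called (-0.39 ± 0.21, limma, adjusted p = 0.248). The summed level of the list was 355 to 507 FPKM in NTV and 196 to 348 in TL. Sums of macrophage markers were 36.7 to 91.4 in NTV and 36.4 to 63.5 in TL, and none of 17 tested macrophage markers was called.

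Vessel genes fell in part. Of 28 endothelial markers, 5 were called lower, against 4.72% of all genes, and none higher (median -0.37). The 5 were Aplnr, Apln, Kdr, Cdh5 and Cldn5, the last with an adjusted p of 0.052 without the libraries that held Ucp1. Kdr, the main receptor for VEGF-A, measured 12.5, 9.86, 11.2 and 8.09 FPKM in NTV and 5.83, 3.26, 6.72 and 4.43 in TL (-0.999 ± 0.20, limma, adjusted p = 0.0129). Apln, the ligand of the apelin receptor, went from 1.17 to 2.12 FPKM in NTV to 0.0729 to 0.687 in TL (-1.25 ± 0.24). Aplnr, its receptor, changed by -1.70, and this call ended without NTV 2, NTV 6, TL 4 or TL 7 (adjusted p up to 0.0591). Among 18 markers of smooth muscle and pericytes, 4 were called lower (Foxs1, Smtn, Pdgfrb and Rgs5), against 4.72% of all genes, and the median was -0.52. Foxs1, a forkhead factor of pericytes, changed by -1.495 ± 0.17. Smtn, Pdgfrb and Rgs5 missed the threshold without the libraries that held Ucp1 (adjusted p = 0.124, 0.0581 and 0.104). The count was 1 without NTV 2, NTV 5, TL 4 or the libraries that held Ucp1, and 1 at equal totals, and 2 without NTV 3, TV 4 or TL 7. The summed level of that list was nonetheless 980 to 1142 FPKM in NTV and 1137 to 1730 in TL, and it includes Des, the desmin gene that muscle fibres express strongly (736 to 899 in NTV and 962 to 1573 in TL).

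Ighm, the immunoglobulin heavy chain constant gene, was among the largest falls although the host lacks functional B cells. It measured 7.75, 5.18, 15.6 and 15.5 FPKM in NTV and 0.89, 0.396, 1.89 and 0.297 in TL (-3.08 ± 0.39, limma, adjusted p = 0.00229), with no overlap. In TV it ran from 0.326 to 0.887 FPKM. It was 1 of only 3 among 25 listed markers of other leukocytes with enough signal to be tested. Of the 25, only the B cell genes Ms4a1 and Igkc and the T cell gene Cd3d were at 0 in all 12 libraries. Others had low signal. The B cell gene Cd79b measured 0.0692 to 0.167 FPKM in NTV and 0.0301 to 0.265 in TL. The T cell gene Trac measured 0.0586 to 0.212 in NTV and 0 in TL.

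**Figure D3:**
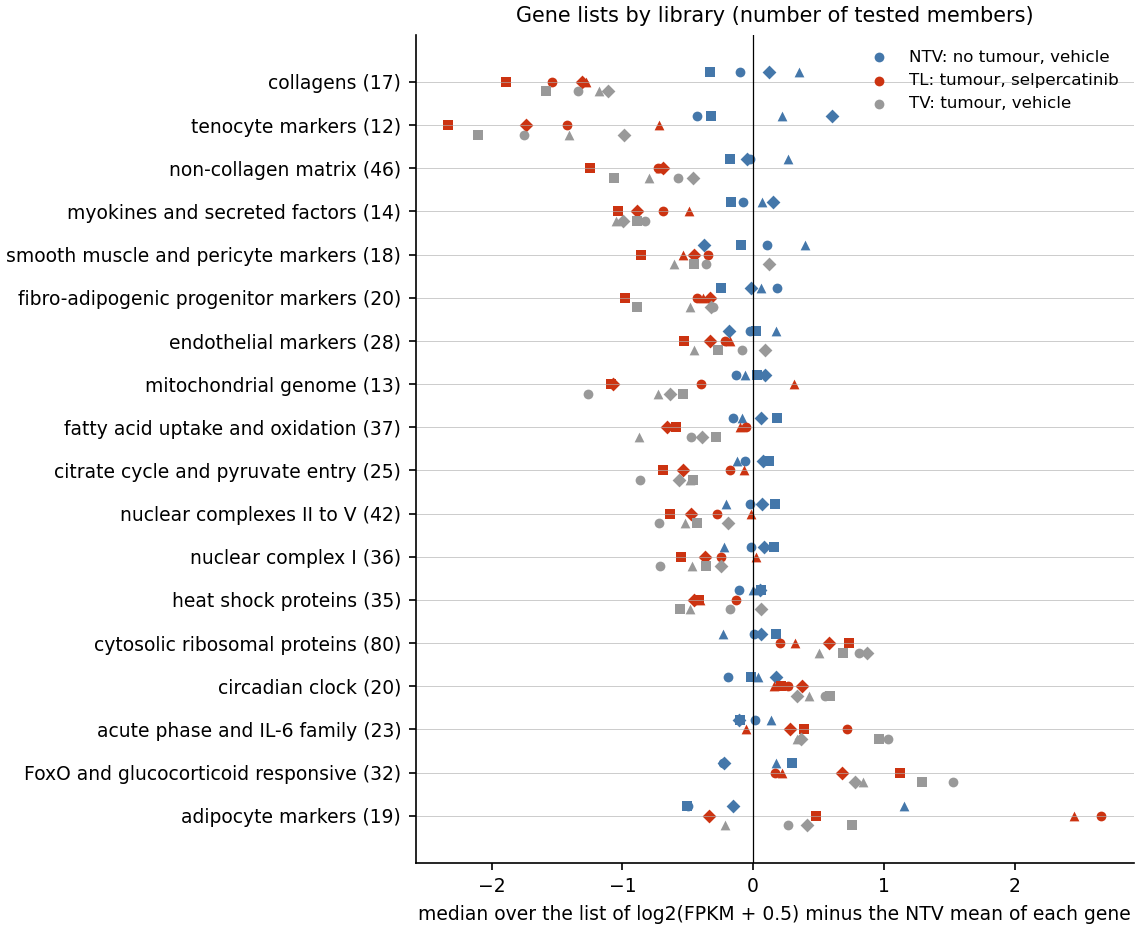
Each symbol is 1 library: the median, over the tested members of a gene list, of log2(FPKM + 0.5) minus that gene's NTV mean, with NTV in blue, TL in red and TV in grey and the number of tested members in parentheses. Collagens lie between -1.89 and -1.28 in TL, and adipocyte markers are highest in TL 1 (2.66) and TL 5 (2.45).

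Clock genes differed between the groups in both directions. The molecular clock runs on the activators CLOCK and BMAL1 (Arntl), which drive their own repressors of the PER and CRY families, while the nuclear receptor REV-ERB (Nr1d1) represses the Arntl gene. Of 20 tested clock genes, 4 were called higher (Per2, Hlf, Cry1 and Csnk1e) and 1 lower (Nr1d1), against 4.18% and 4.72% of all genes. Their median was 0.27. The hour at which mice were sampled is not given, so a difference in hour and a difference in group cannot be told apart. Many clock genes bind their activators at an E-box, CACGTG. The 250 bases before the RefSeq start (GRCm38.p6) are shown for Cry1 and Nr1d1, which changed in opposite directions, with capitals marking CACGTG and the FoxO element GTAAACA in Cry1. The E-box was searched in Nr1d1 and is not in this window.
Cry1, chr10:85185055-85185304, minus strand: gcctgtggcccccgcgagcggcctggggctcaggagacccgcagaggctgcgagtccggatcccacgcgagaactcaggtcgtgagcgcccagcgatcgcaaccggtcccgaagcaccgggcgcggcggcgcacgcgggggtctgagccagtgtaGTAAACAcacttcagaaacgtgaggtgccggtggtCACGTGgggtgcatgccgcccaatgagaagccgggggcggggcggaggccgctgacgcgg
Nr1d1, chr11:98775378-98775627, minus strand: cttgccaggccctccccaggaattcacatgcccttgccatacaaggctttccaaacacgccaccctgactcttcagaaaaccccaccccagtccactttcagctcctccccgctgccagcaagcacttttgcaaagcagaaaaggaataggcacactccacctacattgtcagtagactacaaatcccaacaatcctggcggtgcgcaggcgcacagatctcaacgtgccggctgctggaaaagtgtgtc
On both strands, CACGTG was in 6.02% and GTAAACA in 3.17% of 32851 promoter windows of this length. Of the 16 tested clock genes with a window, 5 held CACGTG, and among the 4 called ones only Cry1 did.

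Nr1d1 (chromosome 11, 98767932 to 98775333, mm10) measured 70.3, 52.4, 42.3 and 56.9 FPKM in NTV and 6.61, 6.75, 4.76 and 9.92 in TL. The change was -2.92 ± 0.36 (limma, adjusted p = 0.00223), and no TL value came near an NTV value. TV measured 21, 19.7, 61.1 and 53.5 FPKM, and TL lay below TV as well (-2.25 ± 0.36, limma, adjusted p = 0.0206), a contrast in which 0.507% of genes were called.

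The rises of Cry1, Hlf and Csnk1e were smaller in size than the fall of Nr1d1. Cry1, a repressor of the clock, went from 4.37 to 7.94 FPKM in NTV to 7.13 to 9.65 in TL, with NTV 2 inside the TL range (0.58 ± 0.16, limma, adjusted p = 0.0463). Hlf, an output factor of the PAR bZIP family, went from 0.762 to 1.44 to 1.56 to 2.71 (0.79 ± 0.18, limma, adjusted p = 0.0212). The Cry1 call ended at equal totals and without any 1 of NTV 3, NTV 5, NTV 6, TV 4, TV 6 or the TL libraries (adjusted p up to 0.117), and that of Hlf without NTV 2, NTV 3 or TL 7 (adjusted p up to 0.0599). Without the libraries that held Ucp1 the adjusted p was 0.233 for Cry1, 0.118 for Hlf, 0.165 for Csnk1e and 0.137 for Per2. Csnk1e, a kinase that marks PER proteins for decay, went from 5.69 to 6.63 FPKM to 8.11 to 8.87 (0.41 ± 0.09, limma, adjusted p = 0.0215), and its call ended without NTV 2 or NTV 5 (adjusted p up to 0.0608). Per2, another repressor, measured 0.187, 1.33, 2.45 and 2.06 FPKM in NTV and 7.21, 4.88, 5.51 and 4.28 in TL (1.74 ± 0.48, limma, adjusted p = 0.0448). With any 1 NTV or TL library, TV 4 or TV 8 left out, Per2 missed the threshold (adjusted p up to 0.0945). Dbp, an output gene chosen here after its values were seen, measured 7.3, 13.5, 28.4 and 52.7 FPKM in NTV against 8.99, 4.16, 9.31 and 5.98 in TL (-1.48 ± 0.52, limma, adjusted p = 0.094). NTV spread wider than TL for Dbp, which passed without NTV 2 (adjusted p = 0.0398). Arntl measured 1.61 to 6.8 FPKM in NTV and 2.42 to 3.92 in TL, a difference of 0.03 ± 0.38. The clock list had 1 gene called higher without NTV 2, NTV 3, NTV 5 or TL 7, and 2 without NTV 6, TV 4, TL 1, TL 4 or TL 5. Without NTV 2 it had 3 called lower. Without the libraries that held Ucp1, or without TL 1 and TL 5, none was called higher.

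**Figure D4:**
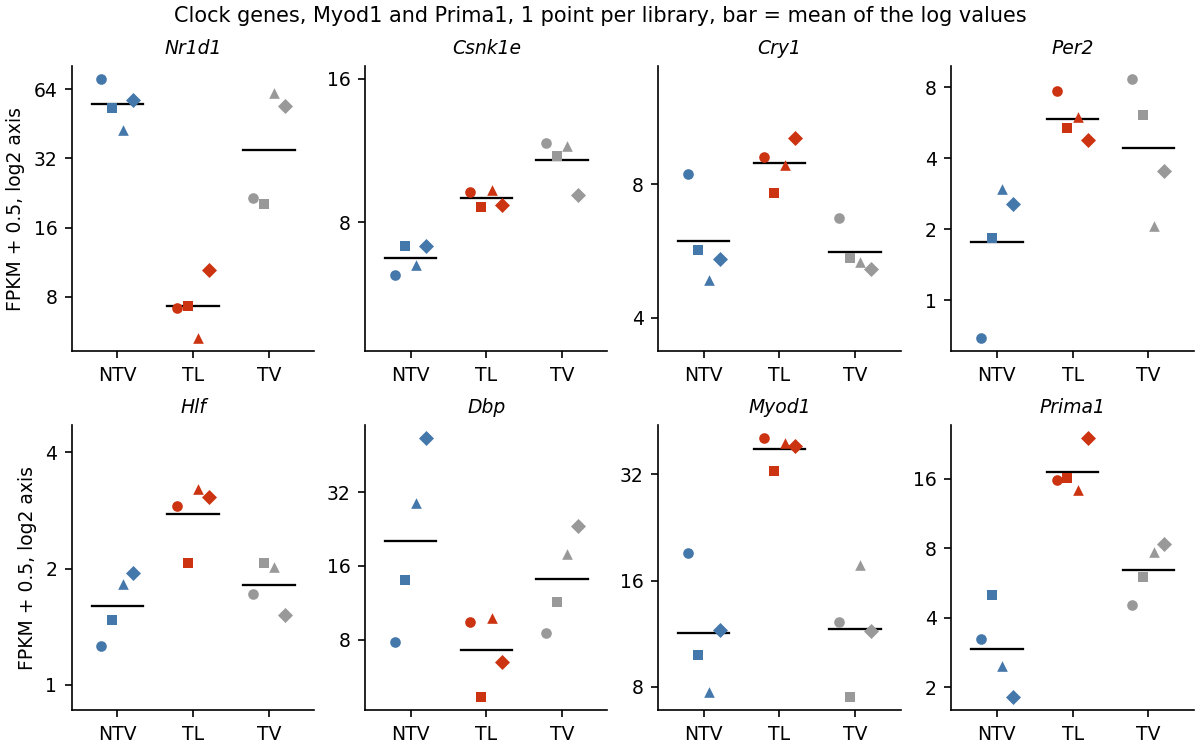
Levels of 6 clock genes, Myod1 and Prima1 in each library (FPKM + 0.5, log2 axis), with NTV in blue, TL in red, TV in grey and a bar at the mean of the log values; symbol shapes follow the order of the replicate numbers. For Nr1d1 the 4 TL points lie below, and for Myod1 and Prima1 above, all points of both other groups.

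The myogenic regulators Myod1 and Myog rose. Myod1 (chromosome 7, 46376474 to 46379099, mm10), the factor that commits cells to the muscle lineage, measured 18.6, 9.32, 7.21 and 11.1 FPKM in NTV and 40, 32.2, 38.7 and 38 in TL. The change was 1.73 ± 0.28 (limma, adjusted p = 0.00604), and the TL values were tighter than those of NTV. TV measured 6.98 to 17.2 FPKM, and TL lay above it by 1.69 ± 0.28 (limma, adjusted p = 0.0233). Without the libraries that held Ucp1 the change was 1.45 (adjusted p = 0.0505). Myog, which acts after Myod1 in differentiation and rises in denervated muscle, went from 9.9 to 13.3 FPKM in NTV to 18.8 to 47.2 in TL (1.28 ± 0.31, limma, adjusted p = 0.0266). Its call ended without NTV 2, NTV 5, NTV 6, TL 4 or TL 7 (adjusted p up to 0.0716). These were the 2 called among 20 tested embryonic and myogenic genes (median 0.22), where 4.18% of all genes were called higher. Pax7, the satellite cell factor, measured 0.338 to 0.682 FPKM in NTV and 0.411 to 0.861 in TL.

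Prima1 (chromosome 12, 103196908 to 103242150, mm10) had the largest rise among called genes the naming rule took. It anchors acetylcholinesterase in membranes. It measured 2.75, 4.52, 1.98 and 1.31 FPKM in NTV and 15.3, 15.6, 13.9 and 23.6 in TL (2.56 ± 0.29, limma, adjusted p = 0.00192), with its call kept in each alternative run. TV measured 4.06, 5.49, 7.2 and 7.82 FPKM, and TL minus TV was 1.41 ± 0.29 (adjusted p = 0.0652). Tmem100, a membrane protein under BMP control, measured 2.96 to 8.33 FPKM in NTV and 28.5, 47.4, 12.4 and 61.6 in TL (2.38 ± 0.45, limma, adjusted p = 0.0104). Ctxn3 changed by 2.41, but this call ended without NTV 2, NTV 3, NTV 5, TL 4 or TL 7 (adjusted p up to 0.0689).

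Some genes of TL stood beyond both other groups, and the following were picked after their values were seen. Smarca2, an ATPase of the BAF chromatin remodelling complex, measured 2.71 to 3.03 FPKM in NTV, 3.03 to 3.34 in TV and 4.36 to 5.45 in TL. It differed from NTV by 0.66 ± 0.08 (limma, adjusted p = 0.00223) and from TV by 0.55 (adjusted p = 0.0161). Mpp3, a membrane scaffold protein, measured 5.28, 7.23, 6.51 and 6.35 FPKM in TL against 1.73 to 2.85 in NTV (1.31 ± 0.17, limma, adjusted p = 0.00263), and 1.19 above TV (adjusted p = 0.016). Stxbp4, a syntaxin-binding protein, was 1.26 above NTV and 1.17 above TV (limma, adjusted p = 0.00634 and 0.0358). Tnfrsf19, a receptor of the TNF family, was lower in TL (2.14 to 2.91 FPKM) than in NTV (3.7 to 4.09) and TV (5.11 to 6.96), with differences of -0.53 and -1.07 (limma, adjusted p = 0.0192 and 0.00386). Its difference from NTV lost the call without NTV 6, TL 4 or TL 7 (adjusted p up to 0.0558) and at equal totals.

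Genes that answer to FoxO factors and glucocorticoids rose in part. Of 32 tested, 8 were called higher and 1 lower (Rhobtb1), against 4.18% and 4.72% of all genes. The median was 0.74 against 0.02 over all genes. Fkbp5, a chaperone of the glucocorticoid receptor that the receptor itself induces, measured 3.48, 4.73, 4.33 and 0.807 FPKM in NTV and 17.5, 23.9, 9.34 and 16.8 in TL (2.29 ± 0.47, limma, adjusted p = 0.0149). Glul, glutamine synthetase, measured 71.5, 104, 99.5 and 68.5 FPKM in NTV and 189, 291, 190 and 166 in TL (1.27 ± 0.24, limma, adjusted p = 0.0104). Pik3r1, the regulatory subunit of PI3-kinase, went from 3.64 to 5.29 FPKM in NTV to 9.59 to 15.7 in TL (1.39 ± 0.28, limma, adjusted p = 0.0132). None of these 3 overlapped between groups, and without the libraries that held Ucp1 Pik3r1 had an adjusted p of 0.0506.

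Foxo3 measured 4.48 to 5.2 FPKM in NTV and 7.77, 12.2, 7.34 and 7.79 in TL (0.75 ± 0.17, limma, adjusted p = 0.022), with TL 4 apart from the rest. This call ended without NTV 5 or NTV 6 (adjusted p up to 0.0619) and without the libraries that held Ucp1 (0.0548). Eif4ebp1, the repressor of cap-dependent translation, changed by 1.58 ± 0.35 (limma, adjusted p = 0.0206), and its call ended without NTV 2, NTV 5, NTV 6 or TL 4 (adjusted p up to 0.0603) and without the libraries that held Ucp1 (0.0921). Cebpd, Ddit4 and the metallothioneins Mt1 and Mt2, also glucocorticoid-inducible, were not called. Ddit4, an inhibitor of mTORC1, measured 3.78, 22.8, 37.1 and 2.41 FPKM in NTV and 7.25, 80.1, 11.2 and 94.5 in TL (1.499 ± 0.95, limma, adjusted p = 0.328), and it passed without the libraries that held Ucp1 (adjusted p = 0.0313). Mt2 measured 0.7 to 7.3 FPKM in NTV and 16.3, 71.2, 7.36 and 17.1 in TL (2.79 ± 0.89, limma, adjusted p = 0.0693), with a gap between the groups of 7.3 to 7.36. The list had 4 genes called higher without NTV 2, NTV 5, NTV 6 or TL 4, and 5 without NTV 3 or TL 7. Of 26 members with a promoter window, Klf9 alone held GTAAACA.

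Genes of the acute phase and of IL-6 signalling included 4 called higher, against 4.18% of all genes, and none lower among 23 tested (median 0.56). Il6ra, the IL-6 receptor, measured 0.526, 0.835, 0.544 and 0.265 FPKM in NTV and 4.7, 4.95, 2.38 and 3.76 in TL (2.08 ± 0.38, limma, adjusted p = 0.00965). Pim1, a kinase induced by STAT3, went from 3.58 to 7.43 FPKM in NTV to 10.5, 29.6, 11.1 and 22.2 in TL (1.70 ± 0.33, limma, adjusted p = 0.0116). Serpina3n, an acute-phase protease inhibitor, went from 0.809 to 1.94 FPKM to 11.7, 13.9, 6.26 and 3.57 (2.32 ± 0.58, limma, adjusted p = 0.0312). Its call ended without TL 1, TL 4 or any NTV library (adjusted p up to 0.0924) and without the libraries that held Ucp1 (0.119). Stat3 itself measured 7.48 to 8.97 FPKM in NTV and 10.1 to 15.9 in TL (0.61 ± 0.17, limma, adjusted p = 0.046). The Stat3 call ended without any 1 of the NTV libraries, TV 4, TV 8, TL 1, TL 4 or TL 7 (adjusted p up to 0.125), and was at 0.098 without the libraries that held Ucp1. It also ended at equal totals, with median-of-ratios scaling on tested genes, without the mean-variance trend and without a filter on low levels. Cxcl13, a B cell chemokine, rose from 0.0861 to 0.562 FPKM in NTV to 1.57 to 4.05 in TL (2.18 ± 0.44, limma, adjusted p = 0.0132). Without the libraries that held Ucp1 it changed by 1.87 (adjusted p = 0.108), and without TL 1 and TL 5 its adjusted p was 0.0551. The count of the list was 2 without NTV 2, NTV 3, NTV 6, TL 1 or TL 4.

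The ubiquitin ligases of atrophy did not move as a group. Of 27 tested, 1 was called higher (Nedd4l) and 2 lower (Fbxl22 and Fbxo40), against 4.18% and 4.72% of all genes, and the median was 0.04. Trim63 measured 72.2, 118, 58.1 and 70.4 FPKM in NTV and 43.5, 215, 49.4 and 134 in TL (0.21 ± 0.56, limma, adjusted p = 0.844). Fbxo32 measured 47, 54.5, 38.5 and 46.2 FPKM in NTV and 17.2, 112, 30.7 and 61.3 in TL (-0.08 ± 0.54, limma, adjusted p = 0.945). For both, TL 4 and TL 7 lay above all NTV libraries and TL 1 and TL 5 below all of them. TV measured 185 to 815 FPKM for Trim63, and TL minus TV was -1.91 ± 0.56 (limma, adjusted p = 0.151). Fbxl22, a ligase subunit of the Z-disc, went from 1.7 to 2.9 FPKM in NTV to 0.344 to 0.81 in TL (-1.27 ± 0.21, limma, adjusted p = 0.00605), and its call ended without the libraries that held Ucp1 (adjusted p = 0.0581). Fbxo40, which targets the insulin receptor substrate, changed by -0.50 ± 0.10, a call that ended at equal totals. The Nedd4l call (0.55) ended without TL 1, TL 4, TL 7 or any NTV library (adjusted p up to 0.0935) and without the libraries that held Ucp1 (0.0616). It also ended at equal totals.

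Of 32 proteasome subunits, 1 was called higher (Adrm1, 0.41), and of 36 autophagy genes 1 was called higher (Sqstm1) and 2 lower (Trp53inp2 and Wipi1). Adrm1 lost its call without NTV 2, NTV 5, NTV 6, TL 4 or TL 7 (adjusted p up to 0.0731) and at equal totals. Trp53inp2, which builds autophagosomes, measured 76.1 to 91 FPKM in NTV and 26.3 to 47.2 in TL (-1.10 ± 0.18, limma, adjusted p = 0.00605). Sqstm1, the cargo receptor p62, went from 122 to 150 FPKM to 182 to 224 (0.54 ± 0.14, limma, adjusted p = 0.0324). The call of Sqstm1 ended without NTV 2, NTV 5, NTV 6, TL 1, TL 4 or TL 7, and that of Wipi1 (-0.40) without TL 1, TL 4, TL 7, TV 4, TV 6 or any NTV library (adjusted p up to 0.0924 and 0.128). They were at 0.101 and 0.0534 without the libraries that held Ucp1. The Wipi1 call also ended at equal totals. Shares of these lists called were near those over all genes.

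**Figure D5:**
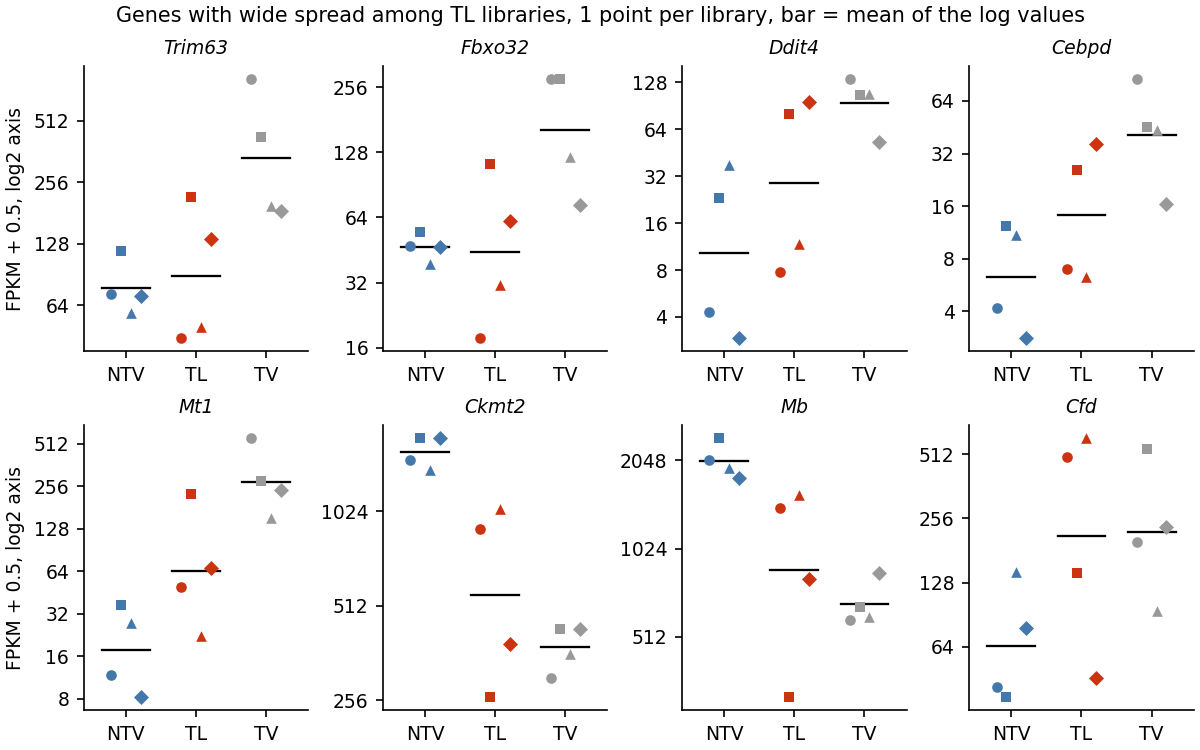
Levels of 8 genes that spread widely among TL libraries (FPKM + 0.5, log2 axis), with NTV in blue, TL in red, TV in grey and a bar at the mean of the log values; symbol shapes follow the order of the replicate numbers. TL 4 (square) and TL 7 (diamond) are above TL 1 (circle) and TL 5 (triangle) for Trim63, Fbxo32, Ddit4, Cebpd and Mt1, and below them for Ckmt2, Mb and Cfd.

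Genes of oxidative metabolism were lower in their medians, with few calls. Of 36 nuclear genes of respiratory complex I, 4 were called lower (median -0.31), of 42 for complexes II to V 3 (-0.37), of 25 for the citrate cycle 3 (-0.38), and of 37 for fatty acid uptake and oxidation 3 (-0.41), with none called higher. Over all genes 4.72% were called lower. These counts are small, and with 1 library left out they fell as low as 0, 0, 0 and 1, so no excess is read from them. Fabp3, the fatty acid carrier of oxidative muscle, measured 682, 952, 731 and 770 FPKM in NTV and 314, 118, 262 and 176 in TL (-1.93 ± 0.31, limma, adjusted p = 0.00604), and its call held in each alternative run. Ckmt2, the mitochondrial creatine kinase of muscle, measured 1388 to 1754 FPKM in NTV and 897, 262, 1039 and 387 in TL (-1.52 ± 0.37, limma, adjusted p = 0.0273). Its call ended without any NTV library, TL 4 or TL 7 (adjusted p up to 0.0745). Cycs, cytochrome c, changed by -0.64 ± 0.14 (limma, adjusted p = 0.0199), a call that ended without NTV 6 or TL 7 (adjusted p up to 0.0559). Mdh1, a malate dehydrogenase of the citrate cycle list, changed by -0.89 ± 0.22 (limma, adjusted p = 0.031) and lost its call without TL 4, TL 7 or any NTV library (adjusted p up to 0.0739).

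The TL libraries were not alike in these genes. The median of the citrate cycle list stood at -0.69 and -0.54 in TL 4 and TL 7 and at -0.18 and -0.07 in TL 1 and TL 5, relative to the NTV mean. Adipocyte markers moved the other way: their median was 2.66 in TL 1 and 2.45 in TL 5, against 0.48 in TL 4, -0.34 in TL 7 and at most 1.15 in NTV (NTV 5). Cfd, adipsin, measured 495 and 608 FPKM in TL 1 and TL 5, 142 and 45.4 in TL 4 and TL 7, and 36.7 to 143 in NTV. Summed over all 19 adipocyte markers the level was 594 to 1118 FPKM in NTV and 977 to 2464 in TL. Much of these sums was Car3 alone, at 443 to 916 FPKM in NTV and 807 to 1182 in TL, so they are no measure of fat content. Of the 19 markers, 1 was called (Tmem79, 0.82), against 4.18% of all genes called higher. That call ended without NTV 2, NTV 6, TL 1 or TL 4 (adjusted p up to 0.0619) and without the libraries that held Ucp1 (0.0966). The part of fat tissue in the mitochondrial values was not tested. Without TL 1 and TL 5, 11 complex I genes, 18 of complexes II to V, 15 of the citrate cycle and 17 of fatty acid oxidation were called lower. In that setting 706 of all 12816 genes were called lower. Without the 3 libraries that held Ucp1 the counts were 10, 15, 14 and 15, with 442 of all genes called lower. Both settings were chosen after the values were seen, and the first leaves out the 2 TL libraries highest in the citrate cycle list. No excess is read from these counts either. Without NTV 6 or TL 7 no gene of complex I, of complexes II to V or of the citrate cycle was called, and 1 of fatty acid oxidation. Without TL 4 the counts were 0, 1, 0 and 1, and without NTV 2 or NTV 3 each was 1. Without NTV 5 they were 2, 1, 0 and 3, and without TL 5 they were 8, 12, 10 and 7. Without TL 1 fatty acid oxidation had 12.

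The mitochondrial genome gave 12.4 ± 0.80% (SD, n = 4) of reads in NTV and 9.17 ± 3.67% in TL, with TL values of 10.1%, 6.04%, 13.9% and 6.55%. The difference of -3.29 percentage points had an exact two-sided permutation p of 0.171, where 0.0286 is the smallest possible with 4 against 4. Of 13 mitochondrial protein genes, mt-Atp6 alone was called, against 4.72% of all genes called lower. It measured 1580, 848, 795 and 1105 FPKM in NTV and 357, 389, 340 and 323 in TL (-1.57 ± 0.21, limma, adjusted p = 0.00302). The median of the 13 was -0.58. mt-Atp6 overlaps mt-Atp8 on the mitochondrial genome, so reads of the pair may be split by the counting. Among 20 regulators of mitochondrial biogenesis, 6 were called lower and 2 higher, against 4.72% and 4.18% of all genes. However, none of the regulators was called lower without NTV 2, NTV 5 or TL 7, and 1 was called lower at equal totals. Perm1, a regulator of oxidative genes induced by exercise, went from 55.2 to 61.4 FPKM in NTV to 20.9 to 45.1 in TL (-0.86 ± 0.20, limma, adjusted p = 0.0213), and its call ended without NTV 2, NTV 5 or TL 7 (adjusted p up to 0.0609). Nrip1, a corepressor of oxidative genes, rose from 2.6 to 4.37 FPKM to 6.24 to 10.5 (1.41 ± 0.26, limma, adjusted p = 0.01). Ppargc1a, the coactivator PGC-1alpha, measured 6.44 to 7.91 FPKM in NTV and 6 to 11 in TL (0.07 ± 0.30, limma, adjusted p = 0.9).

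Part of the cytosolic ribosomal protein genes rose. Of 80 tested, 19 were called higher and none lower, against 4.18% of all genes, with a median of 0.46. In 40 of the 80, the TL values lay above all NTV values (10.7% over all genes). Rps25 measured 79.3, 82.3, 58.2 and 76.4 FPKM in NTV and 99.9, 174, 111 and 152 in TL (0.83 ± 0.18, limma, adjusted p = 0.0172). Rpl12 measured 39.7 to 52.6 FPKM in NTV and 67.2, 111, 62.9 and 103 in TL (0.82 ± 0.18, limma, adjusted p = 0.0207). Rps25 lost its call without NTV 5 or TL 7 and Rpl12 without NTV 5, TL 4 or TL 7 (adjusted p up to 0.0521 and 0.0612). Without NTV 5 the count of the list was 1. It was also 1 without TL 7, 2 without TL 4, 4 without NTV 2 or NTV 6 and 11 without NTV 3 or TV 4. It was 29 without TL 1 and 48 without TL 1 and TL 5, where 395 and 564 of all 12816 genes were called higher. The setting without TL 1 and TL 5 was chosen after the values were seen. Reads of these genes can be shared with their many pseudogenes, so single members are uncertain. Eef2k, the kinase that slows elongation, rose as well, from 6.97 to 8.41 FPKM in NTV to 11.5 to 19.6 in TL (0.80 ± 0.15, limma, adjusted p = 0.0105).

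Part of the chaperone genes fell. Of 35 heat shock genes, 8 were called lower, against 4.72% of all genes, and none higher (median -0.34). In 15 the TL values lay below all NTV values (10.2% over all genes). Bag2, a cochaperone of HSP70, measured 9.31, 9.47, 7.71 and 8.76 FPKM in NTV and 4.74, 2.98, 4.2 and 4.17 in TL (-1.05 ± 0.15, limma, adjusted p = 0.00336). Hsph1, an HSP110 chaperone, went from 10.6 to 16.9 FPKM to 5.81 to 8.04 (-1.03 ± 0.16, limma, adjusted p = 0.0055). Stip1, which joins HSP70 to HSP90, went from 47.4 to 54.9 FPKM to 31 to 33.5 (-0.66 ± 0.10, limma, adjusted p = 0.00444). The calls of Bag2, Hsph1 and Stip1 held in each alternative run. The count for the list was 4 without NTV 6 or TL 4, 5 without NTV 2, NTV 5 or TL 7, and 4 at equal totals.

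Iron uptake gave the call with the lowest adjusted p of all genes. Tfrc (chromosome 16, 32608920 to 32632794, mm10), the transferrin receptor, measured 58, 60.9, 71.3 and 61.3 FPKM in NTV and 16.7, 19.5, 15.3 and 21.5 in TL (-1.77 ± 0.16, limma, adjusted p = 0.00127). TV measured 8.86 to 14.8 FPKM, and TL minus TV was 0.70 ± 0.16 (adjusted p = 0.077). Slc25a28, the mitochondrial iron importer mitoferrin-2, rose from 14.9 to 15.8 FPKM to 24.2 to 34.7 (0.88 ± 0.13, limma, adjusted p = 0.00394). Ftl1, the ferritin light chain, went from 47.6 to 60.7 FPKM to 76.4 to 102 (0.74 ± 0.18, limma, adjusted p = 0.0286), but lost its call without NTV 2, NTV 3, NTV 5, TL 1, TL 4 or TL 5 (adjusted p up to 0.0687). Without TL 1 and TL 5 together Ftl1 had an adjusted p of 0.135, and without the libraries that held Ucp1 0.193. Of 17 tested iron genes, 2 were called higher and 1 lower, against 4.18% and 4.72% of all genes. The other 14 were not called.

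In other metabolic lists a few genes moved. Grb14, an adaptor that inhibits the insulin receptor, fell from 2.72 to 3.57 FPKM to 0.799 to 1.68 (-1.19 ± 0.20, limma, adjusted p = 0.00708). Prodh, proline dehydrogenase, rose from 1.05 to 1.53 FPKM to 2.69 to 4.64 (1.24 ± 0.20, limma, adjusted p = 0.00604), a call that ended without the libraries that held Ucp1 (adjusted p = 0.0584). Fbp2, the muscle fructose bisphosphatase, went from 13.8 to 23.6 FPKM to 31.4 to 53.1 (1.18 ± 0.23, limma, adjusted p = 0.0117). Gpx3, the secreted glutathione peroxidase, went from 81.7 to 100 FPKM to 149 to 195 (0.88 ± 0.16, limma, adjusted p = 0.00838). Ccnd1, cyclin D1, fell from 1.76 to 3.27 FPKM to 0.292 to 0.644 (-1.51 ± 0.18, limma, adjusted p = 0.00196). The groups did not overlap for any of these 5 genes.

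Fibre-type genes gave few calls. None of 18 slow fibre genes was called (median 0.49), and 1 of 20 fast fibre genes was higher, Mylk2, the kinase of the fast regulatory light chain. Over all genes 4.18% were called higher and 4.72% lower. Mylk2 measured 183, 308, 224 and 217 FPKM in NTV and 394, 566, 416 and 546 in TL (1.05 ± 0.17, limma, adjusted p = 0.00635). Myh4, the myosin of the fastest fibres, measured 4421 to 6198 FPKM in NTV and 4721 to 6889 in TL (0.17 ± 0.22), and Myh7, the slow myosin, 28.2 to 97.3 and 64.8 to 163 (1.02 ± 0.60, limma, adjusted p = 0.29). Myh2, the fast oxidative myosin, measured 593 to 1110 FPKM in NTV and 186 to 560 in TL (-1.26 ± 0.41, limma, adjusted p = 0.0743). The Myh2 difference passed without TL 1 or TV 6 (adjusted p of 0.0407 at the lowest) and without TL 1 and TL 5 together (adjusted p = 0.0178) or without the libraries that held Ucp1 (adjusted p = 0.038). Actc1, the cardiac actin that muscle expresses before birth and in regeneration, measured 121, 61.9, 63 and 157 FPKM in NTV and 10.6, 3.97, 31.2 and 10.2 in TL (-3.03 ± 0.62, limma, adjusted p = 0.014). Its groups did not overlap. Among 34 sarcomere genes it was 1 of 3 called lower, with 1 called higher, against 4.72% and 4.18% of all genes.

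The target of the drug had low levels in this muscle. Ret measured 0.791 to 1.33 FPKM in NTV and 0.373 to 0.772 in TL (-0.43 ± 0.16, limma, adjusted p = 0.12), with no overlap and no call. Gfral had 0 reads in all 12 libraries, and Gdf15 had at most 17 reads in any library and at most 4 in TL. Of 11 genes of this axis, only 3 passed the level minimum and were tested, and none of these was called. Among the untested, Gdnf measured 0.164 to 0.368 FPKM in NTV, 0.208 to 1.28 in TL and 1.02 to 2.04 in TV. Gfra2, also untested, went the other way, with 0.415 to 0.56 FPKM in NTV, 0.0609 to 0.459 in TL and 0 to 0.204 in TV. In TV, Ret measured 0.398 to 0.703 FPKM, and TL minus TV was 0.11 (adjusted p = 0.801). Among 17 tested genes of the response to foreign compounds, 3 were called higher and 1 lower, against 4.18% and 4.72% of all genes, and none in either direction without the libraries that held Ucp1. Abcb1b, an efflux pump for drugs, went from 0.651 to 1.02 FPKM in NTV to 1.47 to 2.08 in TL (0.75 ± 0.15, limma, adjusted p = 0.0143), with a call that ended without the libraries that held Ucp1 (adjusted p = 0.0979). Fmo2, a flavin monooxygenase, went from 4.82 to 8 FPKM to 14.1 to 17.4 (1.32 ± 0.27, limma, adjusted p = 0.0134), and without those libraries the adjusted p was 0.0678. Fmo2 also missed the threshold without TL 1 and TL 5 (adjusted p = 0.0506). In TV, Abcb1b measured 1.49 to 2.43 FPKM and Fmo2 7.72 to 19.9.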

How the data were processed

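Muscle RNA of 12 mice (4 per group) was sequenced after poly(A) selection, per the labels' protocols. Per the submitters' processing notes the tools were featureCounts 1.5.0-p3, HISAT2 2.05 and DESeq2, with the build mm10 and no roles stated. Strandedness of the counting is not given in the sources used here, so genes and antisense partners cannot be told apart. The authors deposited FPKM values for 54532 genes. Reads recovered from FPKM and the deposited gene lengths came out whole, within 0.1 read, for 100% of values; the library scale equalled median-of-ratios size factors (relative difference 1.23e-11), so levels assume that most genes do not differ. All 18 pairs of libraries within groups were further apart than counting noise (chi-square per degree of freedom of 17.9 or more).

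limma 3.58.1 (R 4.3.3) with a mean-variance trend was fitted to log2(FPKM + 0.5) of all 12 libraries, 1 mean per group, with Benjamini-Hochberg adjustment over 12816 genes; it was tested on simulated data. Replicates are labelled biological. The 57 gene lists (1501 symbols) and the comparison were chosen with earlier results of these data known; lists are described by counts and medians, without a test. The naming rule took the 10 largest changes in each direction (called, protein-coding, at least 1 FPKM on average, groups not overlapping), up to 3 called members of a list by size (or the 2 with the highest level where none is called) and a fixed set of muscle, wasting and RET genes. The text describes a selection of them. Genes named beyond this rule, mostly further members of a list, were chosen after their values were seen. TL minus TV comes from the same fit. Motifs were the metal response cores TGCACNC and TGCGCNC and GTAAACA on both strands; CACGTG was added after the values were seen. The metal response cores were in 6 of 13 promoter windows of metallothionein and zinc transport genes and in 21.4% of all windows. Alternatives covered the pseudocount, filter, scaling, moderation, voom on recovered reads and each library left out.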

Additional observations from a re-analysis of the deposited data

Results flagged for a closer look

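Among the named genes, 10 values lay far from the other 3 of their group, with a gap to the nearest that passed Dixon's 95% limit for 4 samples. This was looked for in 300 groups of 4, and chance flags about 1 in 20. Ucp1 stood at 53.4 FPKM in NTV 5 (others 0.0359 to 1.06) and at 58.3 in TL 1 (others 0 to 3.97). NTV 5 was also apart for Myh2, at 1.11e+03 FPKM (others 593 to 665), and for Nrip1, at 4.37 (others 2.6 to 2.84). TL 5 stood low for Nrip1 at 6.24 FPKM (others 10 to 10.5) and for Itga7, the laminin-binding integrin of muscle, at 15.5 (others 17.9 to 18.1). TL 4 stood high for Foxo3 at 12.2 FPKM (others 7.34 to 7.79) and Mt2 at 71.2 (others 7.36 to 17.1). Ostc, a subunit of the oligosaccharyltransferase, was at 7.14 FPKM in TL 7 (others 5.82 to 5.99), and Fstl1, a secreted glycoprotein of connective tissue, at 7.89 in NTV 3 (others 14.1 to 15.4).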

How the results depend on the processing

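Each setting's own count of genes called higher was 310 without a filter on low levels (27865 genes tested) and 277 without the 3 libraries that held Ucp1, an alternative chosen after seeing the data, against 536. The count called lower was 280 with libraries scaled to equal totals, against 605. In either direction, these settings shared 612, 506 and 682 genes with the 1141. With 1 library left out, counts ran from 228 (without NTV 5) to 629 (without TV 8) higher and from 285 (without TL 4) to 670 (without TV 8) lower. The other alternatives kept both counts within 1.5 times; without TL 1 and TL 5, also chosen after seeing the data, they were 564 and 706. The cause of these changes was not tested, beyond the fewer samples or larger number of genes tested. Of 122 called genes among the 149 named and tested, 43 stayed called in each alternative that tested them (at most 28) and 79 lost the call in at least 1; 4 of 27 uncalled genes (Mt1, Mb, Myh2 and Ddit4) passed in at least 1, and no called gene changed direction. At equal totals the medians of some lists near 0 changed sign, among them lysosome, fast fibre, sarcomere, amino acid and iron genes. No paired analysis was possible because TL and NTV share only 1 replicate number in the labels. With 4 libraries per group, genes at low levels rest on few reads, which limits what can be called there.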

Other observations

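Non-coding genes were among the calls. Of 281 tested lincRNA genes 27 were called, 22 of them higher, and of 622 processed pseudogenes 32 were called, 25 of them higher. The share over all tested genes was 8.9%, so the lincRNA share was near it and the pseudogene share below it. The following were picked after their values were seen. Gm28653 (chromosome 1, 20669882 to 20684298, mm10) measured 0.384 to 1.45 FPKM in NTV and 6.57, 4.63, 10.8 and 3.21 in TL (2.24 ± 0.37), and 0.716 to 2.54 in TV. Gm32688 (chromosome 10, 93317403 to 93322725) fell from 3.72 to 5.12 FPKM to 0.833, 0, 0.87 and 0.737 (-2.25 ± 0.35). Peg13, an imprinted transcript, rose from 6.33 to 8.62 FPKM to 9.89 to 14.6 (0.70 ± 0.13). Whether these reads come from the named strand is not known.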
